A study of Rattus norvegicus with 18 samples.

Results

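*Cebpd*, *Maff*, and *Jun* encode transcription factors of the basic leucine zipper (bZIP) family and were followed in dorsal root ganglia (DRGs), where sensory neurons of the limb have their somata. They were chosen by name as stress-responsive members of that family, with earlier results of these data known, so their p-values and ranks are no independent evidence. Each was read from 1 Ensembl transcript of the count table (*Cebpd*, ENSRNOT00000074586; *Maff*, ENSRNOT00000017181; *Jun*, ENSRNOT00000011731), 3 of 41078 transcripts in all. Total RNA came from the left L3 and L4 DRGs of 18 Sprague Dawley rats, 6 naive rats with no procedure, 6 sham rats with isoflurane anesthesia, a skin incision, and sutures, and 6 TKA rats with the same anesthesia and a complete total knee arthroplasty with steel implants, each group with 3 rats labelled male and 3 labelled female. Both surgeries were on the left knee, ganglia were taken 24 h later, at a single time point, and the ages of the rats are not given in the sources used here. Sham surgery left the joint closed, so TKA against sham rats compared the whole joint procedure with a skin wound. Values come from whole ganglia, in which more cells of a type and more RNA per cell cannot be told apart.

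bZIP proteins bind DNA as dimers through a basic region followed by a zipper of leucines, and the choice of partner sets which sites they bind. Jun is the core subunit of AP-1, is activated by Jun N-terminal kinases (JNK), and is a known marker of injured sensory neurons. Cebpd (C/EBP delta) is an acute-phase factor that cytokines such as interleukin-6 and interleukin-1 induce, and Maff is a small Maf protein that lacks a transactivation domain and acts through partners such as the NRF2 and BACH factors. The question here was which of these transcripts differed after the skin wound of sham surgery and which after the joint procedure.

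Total counts per rat ranged from 20230562 to 29343899. Levels are CPM, counts scaled to library size with TMM factors over the 18 rats, and the 3 transcripts had between 107 and 13547 counts per rat and passed the filter on low counts in every comparison. Sensory neuron markers fixed for this work were abundant, with a summed level of at least 17546 CPM over the 6 named of 20 in every rat. This sum was mostly neurofilament transcripts. In sham rats *Nefl*, *Nefm*, and *Nefh* had means of 13831, 13326, and 12410 CPM, against 517 for *Calca*, 93.8 for *Isl1*, and 2.29 for *Ntrk3*. TKA rats 2 and 6 stood apart, with the lowest neuron and the highest Schwann cell markers of the 18. Their summed neuron markers were at 17546 and 21975 CPM, against 34780 to 46741 CPM in the naive and sham groups, and their 8 named markers of myelinating Schwann cells summed to 94539 and 53230 CPM, against 6773 to 18197 CPM in those groups. In TKA rats 1 and 5 the neuron markers, at 29154 and 30716 CPM, were also below the naive and sham range. Outside the neurofilaments, TKA rat 2 had 6.98 CPM of *Isl1* and 70.4 CPM of *Calca*, against at least 79.2 and 421 CPM in naive and sham rats. *Ntrk3* went the other way there, at 5.26 CPM against at most 3.33 CPM. TKA rat 2 also had 8558 CPM on 4 skeletal muscle transcripts, against at most 608 CPM in naive and sham rats. TKA rats 3 and 6 were above that level too, at 902 and 887 CPM. The library of TKA rat 4, labelled female, held 3472 counts on 3 transcripts that picked out males among naive and sham rats. Any other rat labelled female had at most 1 count there, and rats labelled male had at least 3097. On 1 transcript that picked out females it had 0 counts, as rats labelled male had, against at least 350 in every other rat labelled female. Its counts were thus those of rats labelled male, and its sex label is in doubt. Results of the 3 members are given with and without TKA rats 2 and 6 where these rats moved them, and values of other genes are over all rats.

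*Cebpd* had a graded level over the groups, with TKA rats apart from all others. It lay between 19.3 and 38.1 CPM in naive rats (median 24.4), between 25.2 and 49.1 CPM in sham rats (median 33.8), and between 61.4 and 88.7 CPM in TKA rats (median 69.2). The TKA rats were all above every naive and sham rat, while naive and sham rats overlapped, with 2 of 6 sham rats (rats 2 and 4) above all 6 naive rats. The group means were 26.0 ± 6.57 CPM (SD, n = 6), 36.6 ± 9.54 CPM (SD, n = 6), and 72.2 ± 9.48 CPM (SD, n = 6) in naive, sham, and TKA rats.

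Against naive rats, *Cebpd* rose 2.78-fold after TKA, a log2 ratio of 1.47 ± 0.16 (SE, 95% interval 1.14 to 1.81). Its adjusted p was 0.00185 in the quasi-likelihood F test of edgeR with Benjamini-Hochberg adjustment over 15170 transcripts. Calls needed both an adjusted p under 0.05 and a fold of 1.5 or more, and in edgeR *Cebpd* against naive rats was the 1 call among the 9 tests of the members. In that comparison 0.0857% of transcripts were called higher and 0% lower, and *Cebpd* ranked 2 by p-value. Against sham rats it was 1.97-fold higher in TKA rats, a log2 ratio of 0.98 ± 0.16 (SE, 95% interval 0.63 to 1.33). Its unadjusted p of 3.83e-05 ranked 3 but did not pass adjustment over 15320 transcripts (adjusted p = 0.196, edgeR). Without TKA rats 2 and 6 the log2 ratio was 1.03 (adjusted p = 0.0985, edgeR). Between sham and naive rats the log2 ratio was 0.49 ± 0.18 (SE, unadjusted p = 0.0159, adjusted p = 0.998, edgeR), with overlapping groups.

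*Maff* showed a different order of levels. It lay between 5.06 and 10.5 CPM in naive rats (median 8.25), between 5.70 and 8.21 CPM in sham rats (median 6.61), and between 11.1 and 14.3 CPM in TKA rats (median 12.7). Sham rats lay wholly within the range of naive rats, and all 6 TKA rats were above all 12 others. The means were 7.90 ± 2.18 CPM (SD, n = 6), 6.83 ± 1.07 CPM (SD, n = 6), and 12.6 ± 1.24 CPM (SD, n = 6) in naive, sham, and TKA rats.

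In TKA rats *Maff* was 1.85-fold higher than in sham rats, a log2 ratio of 0.89 ± 0.15 (SE, 95% interval 0.56 to 1.21), with an unadjusted p of 5.19e-05 that ranked 4 and an adjusted p of 0.199 (edgeR). Against naive rats the log2 ratio was 0.68 ± 0.19 (SE, adjusted p = 0.141, edgeR). Neither passed the threshold. Between sham and naive rats it was -0.21 ± 0.21 (SE, unadjusted p = 0.326), and the 95% interval from -0.64 to 0.23 leaves room for a small difference either way. Without TKA rats 2 and 6 the log2 ratio against sham rats was 0.93 (adjusted p = 0.118, edgeR).

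The promoter of *Maff* is shown because this transcript separated TKA rats from both other groups and is the 1 of the 3 that matched the promoter table (RefSeq, GRCr8). The stretch is the 100 bases before the annotated start, chr7:112792687-112792786 on the plus strand, and capitals mark a match to the cyclic AMP response element TGACGTCA, which CREB, ATF, and AP-1 family bZIP dimers are known to bind.

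Maff: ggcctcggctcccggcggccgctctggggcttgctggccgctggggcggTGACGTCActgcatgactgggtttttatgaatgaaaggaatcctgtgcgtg

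The element ends 44 bases before the start and is palindromic, so both strands hold it. It was in 1.83% of 33469 promoter windows of 300 bases (250 before and 50 after the start) searched on both strands, and in *Maff* as the only one of 11 named bZIP genes with a promoter in the table. A match to the STAT element TTCNNNGAA, written TTCCGGGAA, lay 6 to 14 bases after the start of *Maff*, and 8.87% of windows held that element. The AP-1 element TGANTCA (7.33% of windows), the C/EBP element TTGCNNAA (10.6%), and the Maf half-site TGCTGAN (18.4%) had no match in the *Maff* window. These matches describe letters only, and binding was not measured.

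*Jun* was the member whose lowest p-value came from sham against naive rats. It lay between 147 and 181 CPM in naive rats (median 157), between 177 and 280.1 CPM in sham rats (median 217), and between 132 and 468 CPM in TKA rats (median 254). Sham rats 2, 3, 5, and 6 were above every naive rat, sham rat 4 was level with the highest naive rat at 181 CPM, and sham rat 1 was just below it at 177 CPM. TKA rats spread over and beyond the whole range of sham rats. The means were 159 ± 12.2 CPM (SD, n = 6), 222 ± 42.8 CPM (SD, n = 6), and 284 ± 123 CPM (SD, n = 6) in naive, sham, and TKA rats.

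Between sham and naive rats *Jun* was 1.39-fold higher, a log2 ratio of 0.48 ± 0.11 (SE, 95% interval 0.25 to 0.71), and its unadjusted p of 0.000412 ranked 5 of 15153 transcripts. It did not pass adjustment (adjusted p = 0.998, edgeR). edgeR called no transcript in this comparison (0% higher and 0% lower), with 377 higher and 248 lower at an unadjusted p under 0.05 (4.12% in all, 2.49% higher and 1.64% lower), and DESeq2 with unshrunken fold-changes called 5. At that unadjusted level *Jun* and *Cebpd* passed upward and *Maff* did not. With libraries scaled over the 12 rats compared, 5 of 6 sham rats were above all naive rats for *Jun*, 2 for *Cebpd*, and 0 for *Maff*, and 0.066% of transcripts had all 6 above. With 1 rat left out the log2 ratio of *Jun* stayed between 0.41 and 0.53.

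Between TKA and sham rats the log2 ratio of *Jun* was 0.36 ± 0.25 (SE, unadjusted p = 0.183, adjusted p = 0.683, edgeR), and its 95% interval from -0.19 to 0.90 includes the estimate for *Maff*. The *Jun* ratio was 0.15 without TKA rat 3 and 0.49 without TKA rat 2. In edgeR no transcript was called in either direction here (0%), 1355 (8.84%) had an unadjusted p under 0.05, and DESeq2 with unshrunken fold-changes called 66. The 6 TKA rats were all above the 6 sham rats for *Cebpd* and *Maff*, as for 0.444% of transcripts, and for *Jun* 3 were above and 1 was below. Against naive rats *Jun* was 1.78-fold higher in TKA rats, a log2 ratio of 0.83 ± 0.24 (SE, 95% interval 0.32 to 1.35, adjusted p = 0.143, edgeR). Here 5 of 6 TKA rats were above all naive rats and TKA rat 2 was below all of them, whereas all 6 were above for *Cebpd* and *Maff* (1.27% of transcripts).

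**Figure D1:**
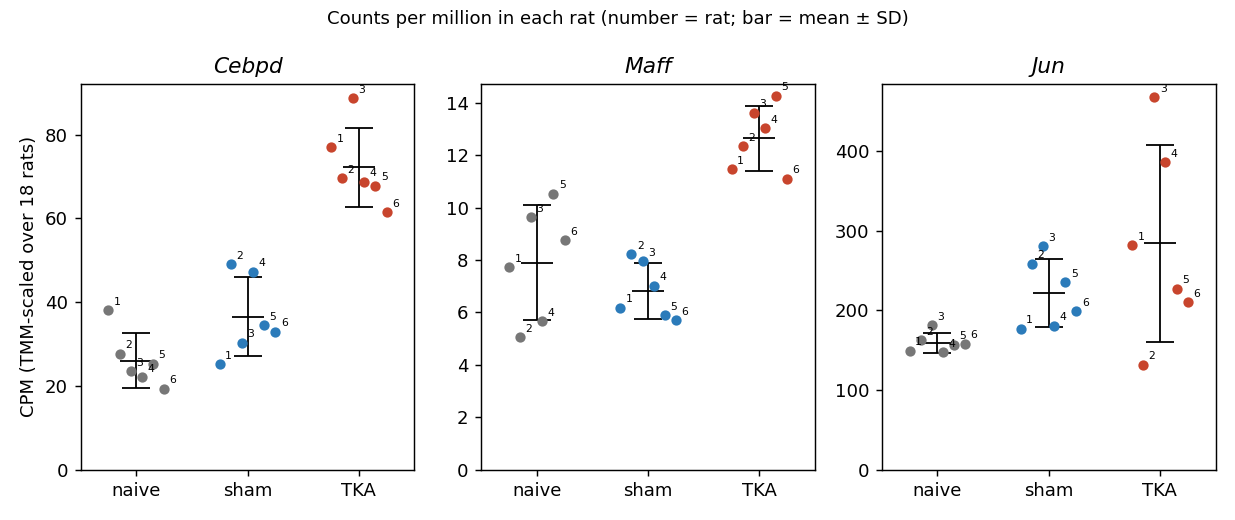
CPM of *Cebpd*, *Maff*, and *Jun* (y axis, linear from 0, a different scale in each panel) in each of the 18 rats by group, with rat numbers beside the points and bars for mean ± SD over 6 rats. All 6 TKA rats lie above all other rats for *Cebpd* and *Maff*, while *Jun* spreads from 132 to 468 CPM over the TKA rats, with TKA rat 2 lowest of all 18.

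The spread of *Jun* between rats differed by group. Its coefficient of variation was 7.66% in naive, 19.3% in sham, and 43.4% in TKA rats, whereas that of *Cebpd* was 25.3%, 26.1%, and 13.1%, and that of *Maff* 27.6%, 15.7%, and 9.78%. Among TKA rats *Jun* was at 468 CPM in rat 3, 386 CPM in rat 4, 282 CPM in rat 1, 227 CPM in rat 5, 210.1 CPM in rat 6, and 132 CPM in rat 2. Rats 3 and 4 were also the TKA rats with the highest summed neuron markers, at 39741 and 37060 CPM, and rats 6 and 2 those with the lowest. These sums are mostly neurofilament level.

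Against naive rats the value of *Jun*, not called with all rats in edgeR, depended on the libraries and the covariates used. Without TKA rat 2 the log2 ratio was 0.98 and passed the threshold (adjusted p = 0.0133, edgeR), and without TKA rats 2 and 6 it was 1.10 (adjusted p = 0.00283, edgeR). DESeq2 and voom called it with all rats, at a log2 ratio of 0.82 without and 0.73 with a prior in DESeq2 and 0.93 in voom. With neurofilament level as a covariate (log2 CPM averaged over *Nefl*, *Nefm*, and *Nefh*) it was 1.40 (adjusted p = 0.00452, edgeR), and against sham rats it was 0.89 in place of 0.36 (adjusted p = 0.296, edgeR). For *Cebpd* and *Maff* the covariate gave 1.08 and 0.98 against sham rats, beside 0.98 and 0.89 without it. The covariate itself differed by group, with log2 ratios of -0.44 for *Nefl*, -0.48 for *Nefm*, and -0.47 for *Nefh* in TKA against sham rats. These fits therefore cannot separate it from the surgery, and their values are not effects corrected for cell makeup. The part of the cell makeup of these ganglia in the level of *Jun* was not tested further.

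**Figure D2:**
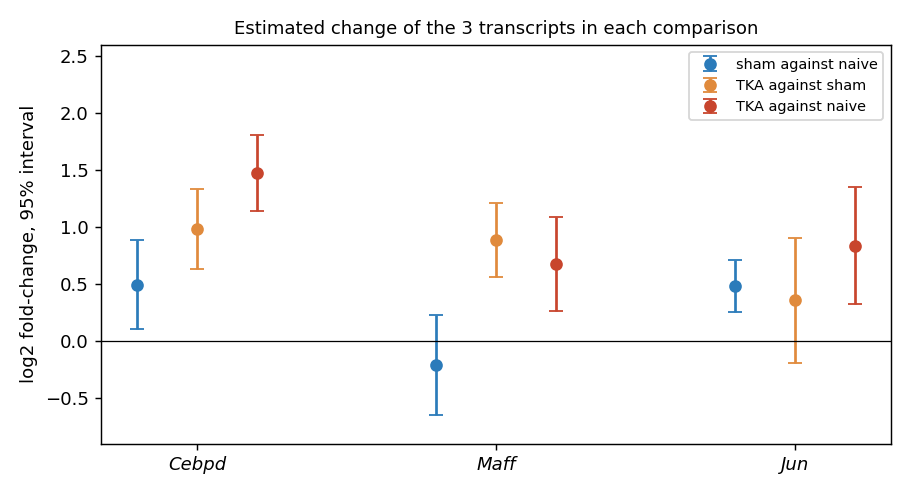
Log2 ratio (y axis, drawn as log2 fold-change) of the 3 transcripts in sham against naive, TKA against sham, and TKA against naive rats, with 95% intervals from edgeR's quasi-likelihood fit of 6 against 6 rats. The sham against naive interval includes 0 for *Maff* alone, and the TKA against sham interval includes 0 for *Jun* alone.

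Whether the step from sham to TKA differed from the step from naive to sham was tested in 1 fit of all 18 rats. The TKA step exceeded the sham step by 1.10 on the log2 scale for *Maff* (standard error 0.32, unadjusted p = 0.00272) and by 0.49 for *Cebpd* (standard error 0.30, unadjusted p = 0.118), and for *Jun* the difference was -0.12 (standard error 0.37, unadjusted p = 0.748). None of these passed adjustment over 16048 transcripts (adjusted p = 0.9996 for each, edgeR), of which 2.52% had an unadjusted p-value under 0.05 and 0% passed. The difference for *Cebpd* was 0.32 without sham rat 1 and 0.69 without sham rat 2. The difference for *Jun* was -0.33 without TKA rat 3, 0.13 without TKA rats 2 and 6, 0.024 without TKA rat 2, and 0.034 without sham rat 3. A difference between the steps was therefore not shown for any of the 3.

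Members were also compared with each other inside each library, which removes the scaling of libraries. Between sham and naive rats the log2 ratio of *Jun* exceeded that of *Maff* by 0.63 (exact permutation test, two-sided, p = 0.0152, adjusted p = 0.0455 over 9 comparisons), and that of *Cebpd* exceeded it by 0.66 (exact permutation p = 0.0411, adjusted p = 0.0617). *Jun* and *Cebpd* differed by -0.025 there (exact permutation p = 0.920). Between TKA and sham rats *Jun* minus *Cebpd* was -0.75 (exact permutation p = 0.0216, adjusted p = 0.0487), and the difference between *Jun* and *Maff* was -0.63 (exact permutation p = 0.0368, adjusted p = 0.0617). *Cebpd* and *Maff* differed by 0.12 in that step (exact permutation p = 0.435), and by 0.030 without sham rat 3 and 0.193 without sham rat 4. Over the whole span from naive to TKA rats, *Cebpd* minus *Maff* was 0.78 (exact permutation p = 0.0130, adjusted p = 0.0455), *Jun* minus *Cebpd* was -0.78 (exact permutation p = 0.0130, adjusted p = 0.0455), and *Jun* minus *Maff* was 0.00494 (exact permutation p = 0.981).

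These 4 adjusted p-values under 0.05 were fragile. The difference between *Jun* and *Maff* in sham rats passed without naive rat 1, naive rat 2, or sham rat 4 and missed without any of the other 9 rats (adjusted p up to 0.0779, from exact permutation tests). The difference between *Jun* and *Cebpd* passed in 3 of 12 such tests against sham rats (without sham rat 4, TKA rat 3, or TKA rat 4) and in 3 of 12 against naive rats (without naive rat 1, TKA rat 3, or TKA rat 4), and that between *Cebpd* and *Maff* against naive rats passed without naive rat 1, naive rat 2, or TKA rat 4. Without TKA rats 2 and 6 the difference between *Jun* and *Cebpd* was -0.49 against sham and -0.52 against naive rats (adjusted p = 0.189 and 0.150, exact permutation tests).

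Within groups, rats high in 1 member were not shown to be high in another. After group means were removed, Pearson's r over the 18 rats was 0.238 for *Jun* and *Maff* (permutation p = 0.343, Spearman's rho 0.348, permutation p = 0.158), 0.208 for *Jun* and *Cebpd* (permutation p = 0.407, rho 0.249, permutation p = 0.319), and 0.111 for *Cebpd* and *Maff* (permutation p = 0.659, rho 0.0795, permutation p = 0.754). Adjusted over the 6 values, the permutation p-values were at least 0.611. Without the 2 rats farthest from the median, r was 0.286, 0.0932, and -0.0108.

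The named transcripts whose levels followed each member most closely over the 18 rats are given as a description, since these correlations hold the group differences as well as the spread between rats. Of 3241 named transcripts, those nearest *Jun* were *Flrt3*, an adhesion molecule of axons (r = 0.947), *Gadd45a*, a stress-induced growth arrest gene (r = 0.919), *Itpkc* (r = 0.905), *Vgf*, a neuropeptide precursor (r = 0.897), and *Tnfrsf1a*, a receptor of tumor necrosis factor (r = 0.892). *Flrt3* was at 161 CPM in TKA rat 3, 119 CPM in rat 4, 77.8 CPM in rat 1, 52.2 CPM in rat 6, 39.0 CPM in rat 5, and 16.5 CPM in rat 2. *Jun*, *Flrt3*, and *Gadd45a* therefore had TKA rats 3, 4, and 1 as their highest 3 in the same order, and TKA rat 2 as the lowest TKA rat. Those nearest *Cebpd* were *Ifitm3* (r = 0.927) and *Zfp36*, which destabilizes cytokine mRNAs (r = 0.897), then *Ugdh* (r = 0.856), *Cldn1* (r = 0.852), and *Twf1* (r = 0.852). Those nearest *Maff* were *Ch25h*, cholesterol 25-hydroxylase (r = 0.818), *Ddit4* (r = 0.797), *Map3k6* (r = 0.794), *Ackr3* (r = 0.790), and *Agpat2* (r = 0.788).

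**Figure D3:**
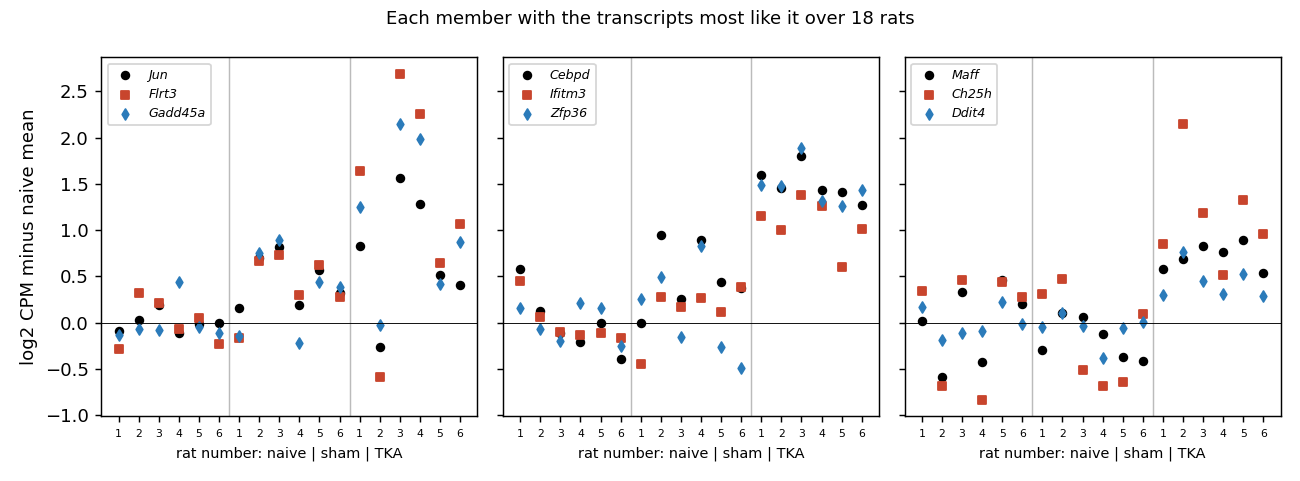
Log2 CPM minus the naive mean (y axis) in each of the 18 rats (x axis, rat numbers within naive, sham, and TKA rats, divided by lines) for each member and the 2 named transcripts most like it. *Jun*, *Flrt3*, and *Gadd45a* are highest in TKA rats 3 and 4 and near or below 0 in TKA rat 2, whereas *Cebpd*, *Ifitm3*, and *Zfp36* are above 0 in all 6 TKA rats.

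Of 51 other bZIP genes listed, 15 had a named transcript and 14 passed the filter on low counts, with *Fosb* too low to test. Names came from tables sorted by the study's own tests, so the named genes lean toward those that moved, and counts over them describe these genes only. In sham against naive rats 13 of the 14 were higher (51.7% of all transcripts were), 2 of them with an unadjusted p under 0.05 (*Fos* and *Cebpa*) and 0 lower at that level, with a median log2 ratio of 0.086 against 0.0069 over all transcripts. In TKA against sham rats 12 of 14 were higher (51.5% of all), 6 had an unadjusted p under 0.05 upward and 1 downward (5.94% and 2.9% of all), and the median was 0.34 against 0.011. In TKA against naive rats 12 of 14 were higher (52.2% of all), 10 passed that level upward and 1 downward (11.7% and 5.48% of all), and the median was 0.54 against 0.020. None of the 14 was called by edgeR in the 3 comparisons.

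The Fos proteins pair with Jun in AP-1. *Fosl2* lay between 4.16 and 9.47 CPM in TKA rats and reached at most 3.47 CPM in sham rats, a log2 ratio of 1.14 ± 0.26 (SE, adjusted p = 0.325, edgeR). *Fos* lay between 7.24 and 44.4 CPM in TKA rats and between 6.88 and 17.9 CPM in sham rats, so that the groups overlapped (log2 ratio 0.94, unadjusted p = 0.0344). It was highest in TKA rat 3 and lowest among TKA rats in rat 2, as *Jun* was, whereas *Fosl2* was highest in rat 2. Between sham and naive rats *Fos* had a log2 ratio of 0.50 (unadjusted p = 0.0346), beside 0.48 for *Jun*.

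Among the C/EBP factors, *Cebpb*, a relative of *Cebpd* that also answers to interleukin-6, had a mean of 36.5 ± 18.6 CPM (SD, n = 6) after TKA and 19.8 ± 4.85 CPM (SD, n = 6) after sham surgery. TKA rats 2, 3, and 4 were above all sham rats and the other 3 were within their range. Its log2 ratio was 0.88 ± 0.29 (SE, unadjusted p = 0.00868, with TKA rat 2 at 70.5 CPM) in TKA against sham rats and 0.046 in sham against naive rats. *Cebpa* had log2 ratios of 0.51 in sham against naive rats (unadjusted p = 0.0364) and 0.49 in TKA against sham rats (unadjusted p = 0.133). *Cebpg* had a log2 ratio of 0.29 in TKA against sham rats (unadjusted p = 0.00704).

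In the Maf group the small Maf *Mafk* had log2 ratios of 0.36 in TKA against sham rats (unadjusted p = 0.00829) and 0.020 in sham against naive rats, beside 0.89 and -0.21 for *Maff*. The large Maf *Mafa*, which carries a transactivation domain, lay on the other side, with 8.65 to 15.2 CPM in TKA rats and 16.8 to 24.2 CPM in sham rats. Its 6 TKA values were below its 6 sham values (as for 0.372% of transcripts), with a log2 ratio of -0.695 ± 0.163 (SE, adjusted p = 0.355, edgeR).

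Of the 7 other relatives 1 had an unadjusted p under 0.05 in TKA against sham rats, *Atf5*, with a log2 ratio of 0.29 (unadjusted p = 0.0105). *Atf4*, a factor of the integrated stress response, had 0.21 (unadjusted p = 0.054), *Nfil3* 0.83 (unadjusted p = 0.0527), *Hlf* 1.23 (unadjusted p = 0.104), *Dbp* 0.33 (unadjusted p = 0.334), *Crebrf* 0.20 (unadjusted p = 0.283), and *Crebzf* -0.11 (unadjusted p = 0.378). In sham against naive rats these 7 ranged from -0.30 (*Hlf*) to 0.39 (*Nfil3*), with no unadjusted p under 0.05.

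**Figure D4:**
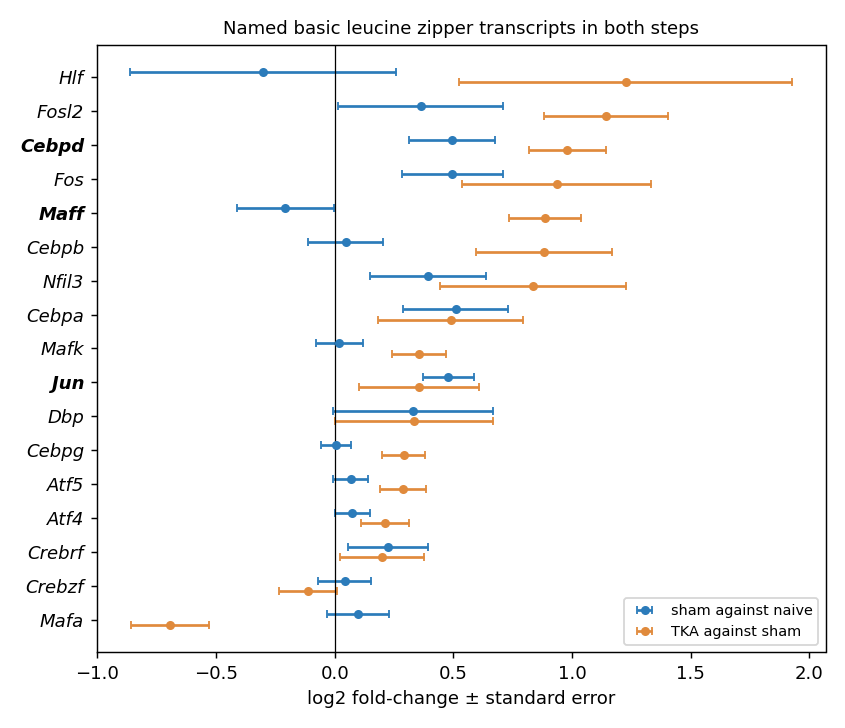
Log2 ratio ± SE (x axis, drawn as log2 fold-change) of the 17 named bZIP transcripts tested, in sham against naive and in TKA against sham rats (6 rats per group), ordered by the TKA against sham value. *Maff*, *Cebpb*, and *Mafk* have TKA against sham values of 0.89, 0.88, and 0.36 beside sham against naive values of -0.21, 0.046, and 0.020. The bars of both steps overlap for *Jun* and *Cebpa*, and also for *Fos*, *Nfil3*, *Dbp*, *Crebrf*, *Crebzf*, and *Atf4*.

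Genes that act around these factors were counted from lists of textbook members, named from the same tables, so these counts are no independent evidence of a direction. In the list of cytokine signaling, which feeds into *Cebpd*, 8 of 21 genes were named. In sham against naive rats 3 of the 8 had an unadjusted p under 0.05 upward and 0 downward (2.49% and 1.64% of all transcripts), with a median of 0.21 against 0.0069 over all transcripts. In TKA against sham rats 6 did upward and 0 downward (5.94% and 2.9% of all), with a median of 0.998 against 0.011. Against naive rats 1 of the 8 was called, *Il1r1*, the receptor for interleukin-1, which rose by a log2 ratio of 1.58 (adjusted p = 0.0197, edgeR). *Il1r1* had the graded order of *Cebpd*, at 4.15 ± 0.991 CPM (SD, n = 6) in naive, 6.21 ± 0.788 CPM (SD, n = 6) in sham, and 12.5 ± 3.83 CPM (SD, n = 6) in TKA rats. *Socs3*, which dampens interleukin-6 signaling, had log2 ratios of 0.64 in sham against naive rats (unadjusted p = 0.0226) and 1.46 in TKA against sham rats (unadjusted p = 0.00245). *Nfkbia*, the inhibitor of NF-kappaB, had the order of *Maff* instead, with log2 ratios of -0.23 (unadjusted p = 0.0555) and 1.08 (unadjusted p = 0.000257). The others past that level in TKA against sham rats were the receptors *Il6r* (log2 ratio 1.15) and *Tnfrsf1a* (log2 ratio 0.40), the kinase *Jak2* (log2 ratio 0.52), and *Il1r1* (log2 ratio 1.01). *Tnfrsf1a* and *Il1r1* also passed it in sham against naive rats (log2 ratios 0.26 and 0.58).

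In the list of the JNK pathway 6 of 20 genes were named. In sham against naive rats 2 had an unadjusted p under 0.05 upward, the stress genes *Gadd45a* (log2 ratio 0.40) and *Gadd45g* (0.82), and 0 downward (2.49% and 1.64% of all transcripts), with a median of 0.20 against 0.0069. In TKA against sham rats, where 5.94% of all transcripts passed upward and 2.9% downward, 3 of the 6 passed upward, *Gadd45a* (0.90), *Gadd45g* (0.65), and the phosphatase *Dusp1* (0.61), and 2 downward, the upstream kinases *Map3k12*, also known as dual leucine zipper kinase (log2 ratio -0.25), and *Map3k1* (log2 ratio -0.73), with a median of 0.18 against 0.011. None of the 6 was called by edgeR in the 3 comparisons.

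The list of axon injury genes, to which *Jun* is tied by textbook knowledge, had 8 of 20 genes named. Of the 7 tested in sham against naive rats 4 had an unadjusted p under 0.05 upward (*Flrt3*, log2 ratio 0.42, *Gadd45a*, 0.40, *Sema6a*, 0.33, and *Reg3b*, 1.41) and 0 downward (2.49% and 1.64% of all transcripts), with a median of 0.40 against 0.0069. In TKA against sham rats 7 of 8 did upward and 0 downward (5.94% and 2.9% of all), with a median of 1.003 against 0.011. These had log2 ratios of 3.59 for *Ankrd1*, 1.84 for *Reg3b*, 1.20 for *Flrt3*, 0.91 for *Sema6a*, 0.90 for *Gadd45a*, 0.83 for *Tubb6*, and 0.71 for *Csf1*. The 2 largest rest on low and uneven levels. *Ankrd1* had 0 to 20 counts in sham rats and lay between 0.311 and 23.9 CPM in TKA rats (median 2.63). The highest value was that of TKA rat 2, the library with the most skeletal muscle transcripts (8558 CPM), and a part of muscle in it was not tested. *Reg3b* lay between 0.521 and 15.8 CPM in TKA rats (median 3.12). Against naive rats the tubulin *Tubb6* was called (log2 ratio 1.08, adjusted p = 0.00672, edgeR). A list of 24 genes, mostly immediate-early genes and their feedback regulators but also *Fkbp5* from neither class, had 15 named. Of these, 3 passed that level upward in sham against naive rats (*Ier2*, log2 ratio 0.38, *Klf2*, 0.64, and *Nr4a2*, 0.51) and 12 in TKA against sham rats (2.49% and 5.94% of all transcripts), with 0 downward and medians of 0.11 and 0.61 against 0.0069 and 0.011. The 12 had log2 ratios from 0.34 (*Klf10*) to 1.67 (*Egr2*), with *Zfp36* at 1.31, *Myc* at 1.19, *Egr1* at 0.90, *Dusp6* at 0.87, *Per1* at 0.80, *Btg2* at 0.78, *Dusp1* and *Fkbp5* at 0.61, *Nr4a2* at 0.46, and *Nr4a1* at 0.39. *Egr2* was uneven, with a TKA median of 68.8 CPM and 246 CPM in TKA rat 2, the library with the most Schwann cell markers. *Zfp36* was called against naive rats (log2 ratio 1.48, adjusted p = 0.000392, edgeR). Of 16 NRF2 targets and regulators, which small Maf proteins help to control, 3 were named. In TKA against sham rats *Ftl1* had a log2 ratio of 0.42 (unadjusted p = 0.048), *Prdx1* of 0.19 (unadjusted p = 0.0307), and *Keap1*, the NRF2 inhibitor, of -0.34 (unadjusted p = 0.0197).

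Between TKA and sham rats all 11 macrophage, all 8 Schwann cell, and 2 of 3 satellite glia markers tested had a log2 ratio above 0, and 6, 7, and 2 of them an unadjusted p under 0.05 upward (5.94% of all transcripts), with none called by edgeR. Of the 6 neuron markers tested 4 had a log2 ratio below 0, and the median was -0.45 against 0.011 over all transcripts. An unadjusted p under 0.05 downward was found for 3 of them (2.9% of all transcripts, edgeR). *Calca* (log2 ratio 0.070) and *Ntrk3* (0.33) were above 0. The summed levels of each of these cell types overlapped between the groups. The 11 named of 16 macrophage markers summed to between 98.9 and 416 CPM in naive and sham rats and between 242 and 863 CPM in TKA rats, with rat 2 alone above that range. Sham rat 1 set the top of that range. The next highest was naive rat 1 at 273 CPM, and TKA rats 1, 2, 3, and 6 were above it. The Schwann cell markers summed to between 6773 and 18197 CPM in naive and sham rats, and TKA rats 1, 3, 4, and 5 lay within that range, between 10610 and 18167 CPM. The 3 named of 7 satellite glia markers summed to between 290 and 673 CPM in naive and sham rats and between 446 and 2739 CPM in TKA rats, with rats 2 and 6 above that range. Sham rat 1 again set the top of the range. The next highest was naive rat 3 at 406 CPM, below every TKA rat. In TKA rat 2 the sums of Schwann cell, satellite glia, macrophage, and muscle markers were all highest. Without TKA rats 2 and 6 the log2 ratios of *Cebpd* and *Maff* against sham rats were 1.03 and 0.93. The part of other cell types in the levels of the 3 transcripts was not tested further.

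No interaction of sex label and surgery was detected. The interaction of sex and surgery lay between -0.41 and 0.57 on the log2 scale over the 3 members and 3 comparisons, with unadjusted p-values from 0.122 to 0.975 (adjusted p at least 0.985, edgeR, with 0% of transcripts past 0.05). The largest was that of *Cebpd* between sham and naive rats, where the log2 ratio was 0.77 in rats labelled female and 0.20 in rats labelled male. This interaction of 0.57 was 0.35 without naive rat 1 and 0.89 without sham rat 2. For *Jun* between TKA and sham rats the interaction was 0.12 with the labels as given and -0.32 with TKA rat 4 entered as male, and with that entry the 6 interactions that include TKA rats lay between -0.45 and 0.26.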

How the data were processed

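Total RNA from the DRGs of 18 rats was sequenced by the authors in paired-end mode (150 bp). HISAT2 placed the reads on rn6 and featureCounts counted them per Ensembl transcript. The deposited values are raw counts, without normalization. Versions, annotation, and counting options (strand, overlaps) are not given in the sources used here, so reads shared by isoforms or overlapping genes can be split or lost.

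Group, number, and sex came from the labels. The numbers name rats within a group and were not taken as pairs. Symbols came from the study's tables, of which a shortened copy was used, and cover 3837 of 41078 transcripts. For symbols with several transcripts the most abundant was taken, and gene sums and coordinates were not made.

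Each pair of groups (12 rats) was fitted with edgeR 4.0.16 in R 4.3.3 (filterByExpr, TMM, quasi-likelihood F test, Benjamini-Hochberg adjustment). The fit of all 18 rats tested the contrast of both steps. Each SE is the absolute log2 ratio over the root of its F statistic, and log2 CPM used a prior count of 2. Exact permutation tests ran over all splits of 12 rats on log2 values. Their smallest p-value is 0.00216. Alternatives used DESeq2 1.42.0 and limma 3.58.1 among others. On simulated counts with 100 of 15320 transcripts changed by a log2 of 1 and 100 by 2, the TKA against sham fit recovered 37 and 84, and made 0 calls with none changed. For sham against naive rats (15153 transcripts) it recovered 60 and 82, and for TKA against naive rats (15170 transcripts) 36 and 73.

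No 2 rats had the same counts (lowest chi-square per degree of freedom 10.6 over pairs of rats, median 29.8). The members and lists were chosen with earlier results of these data known. Named beside the 3 members were all named bZIP transcripts, listed pathway genes with an unadjusted p-value under 0.05 in the comparison described, and the 5 named transcripts most correlated with each member. Genes of a list without a name were not analysed here.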

Additional observations from a re-analysis of the deposited data

Results flagged for a closer look

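Over 17 bZIP transcripts in 3 groups each (51 groups of 6 rats), the gap between each extreme rat and its neighbour was set against the range of the group in log2 CPM. In 1 of the 51 groups a rat stood far from the rest, where chance gives about 2.55. *Atf5* was at 7.11 log2 CPM in sham rat 3, with the next sham rat at 6.79. No value of *Cebpd*, *Maff*, or *Jun* stood apart in this way, including *Jun* in TKA rat 2.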

How the results depend on the processing

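*Cebpd* against naive rats was called in all 25 alternatives. The other 8 log2 ratios of the members kept their direction in every alternative, and those of sham against naive rats and of *Jun* against sham rats were called in none. DESeq2 called *Cebpd* and *Maff* against sham rats (0.98 and 0.88 unshrunken, 0.90 and 0.83 shrunken), and *Maff* and *Jun* against naive rats (0.67 and 0.82 unshrunken, 0.62 and 0.73 shrunken), as did voom (0.77 and 0.93). One fit of all 3 groups called *Cebpd* against sham rats (0.98). *Jun* against naive rats was called with the neurofilament covariate (1.40) and without TKA rats 2 and 6 (1.10), and ranged from 0.63 (without TKA rat 3) to 0.98 (without TKA rat 2) with 1 rat left out. The cause was not tested. Called transcripts in sham against naive rats numbered 0 in edgeR and 5 in DESeq2 with unshrunken fold-changes. In TKA against sham rats they numbered 0 in edgeR, 66 (unshrunken) and 58 (shrunken) in DESeq2, 1 with voom, and 11 in one fit. In TKA against naive rats they numbered 13 in edgeR, 450 and 355 in DESeq2, 123 with voom, 116 in one fit, 38 with the covariate, 105 without TKA rats 2 and 6, and from 3 to 113 (without TKA rat 2) with 1 rat left out.

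The rat number as a replicate block left 1 call against naive rats (*Cebpd*, 1.496, adjusted p = 0.0299 from edgeR) and changed no call of a member. The numbers do not pair the rats (deviations of same-numbered rats correlated over 0.1 in 2 of 18 pairs, and the own number was best in 3).

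The TKA step minus the sham step of *Jun* was 0.13 without TKA rats 2 and 6 and ranged from -0.33 to 0.034 with 1 rat left out. With 1 rat left out, *Jun* minus *Maff* ranged from 0.54 to 0.76 in sham against naive, from -0.77 to -0.44 in TKA against sham, and from -0.14 to 0.20 in TKA against naive rats (-0.000116 with a prior count of 0.5). *Jun* minus *Cebpd* ranged from -0.16 to 0.11, from -0.89 to -0.56, and from -0.91 to -0.59 in the same order, and was -0.49 and -0.52 in the latter 2 without TKA rats 2 and 6. *Cebpd* minus *Maff* ranged from 0.54 to 0.80 in sham against naive and from 0.66 to 0.92 in TKA against naive rats, where it was 0.79 without TKA rats 2 and 6. The sex interaction of *Jun* ranged from -0.29 to 0.00460 in sham against naive, from -0.23 to 0.62 in TKA against sham (-0.32 with TKA rat 4 as male), and from -0.36 to 0.49 in TKA against naive rats, and in the last comparison that of *Cebpd* from -0.046 to 0.31 and that of *Maff* from -0.35 to 0.092.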
